A study of Rattus norvegicus with 10 samples.

Results

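The genes described here are those for mitochondrial ribosomal proteins, taken as every gene of the rat transcriptome whose symbol begins with Mrpl or Mrps followed by a number. The rule found 76 of the 32402 genes listed, and 71 of them had enough counts to be tested among 15311 genes. RNA sequencing measured polyadenylated RNA of the hypothalamic supraoptic nucleus (SON) of Wistar Han rats, in 5 dehydrated libraries, from rats left without drinking water for 72 h, and 5 euhydrated libraries, from rats with free access to water. The SON is dense in magnocellular neurones, which make vasopressin and oxytocin, and was punched on both sides of the brain, so each library also holds glia, vessels and blood. Water was withheld by cage, and the labels do not tie libraries to single animals, which means that the tests rest on library-to-library spread, part of which may be technical.

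Mitochondria have ribosomes of their own, which are related to those of bacteria and translate the few messenger RNAs of the mitochondrial genome, all for subunits of the respiratory chain and ATP synthase. The ribosomal RNAs come from the mitochondrial genome, whereas every protein of the small and the large subunit is encoded in the nucleus, made in the cytosol and imported in mammals. Some of these proteins have a counterpart in the bacterial ribosome and the others are specific to mitochondria. In mammalian cells, nuclear genes for mitochondrial proteins are known as targets of the transcription factors NRF1, GABP (of the ETS family) and YY1.

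The promoters of 58 of the 76 genes were found in RefSeq (build GRCr8) and searched on both strands, from 250 bases before to 50 after the start. The letters were ACTTCCGG for an ETS site, AAGATGGC for YY1 and CGCATGCG for NRF1. ETS letters stood in 8 of the 58 promoters (13.8%, against 3.81% of all 33469 RefSeq promoters), YY1 letters in 15 (25.9% against 3.17%) and NRF1 letters in 6 (10.3% against 1.66%). At least 1 of these motifs was present in 25 promoters (43.1% against 8.07% of all). Base composition differed as well, with a median GC content of 55.8% in the 58 promoters and 51.7% in all promoters. Shown here are promoters of 4 genes that passed the test between the groups: Mrps27 on the plus strand (chr2:32473954-32474253) holds ETS and YY1 letters, Mrps7 on the plus strand (chr10:101342392-101342691) holds YY1 letters, Mrps26 on the plus strand (chr3:138222074-138222373) holds ETS letters, and Mrps9 on the plus strand (chr9:52605428-52605727) holds none of them. Capitals mark the matches, and no base is shared by 2 matches in these 4 sequences.
Mrps27: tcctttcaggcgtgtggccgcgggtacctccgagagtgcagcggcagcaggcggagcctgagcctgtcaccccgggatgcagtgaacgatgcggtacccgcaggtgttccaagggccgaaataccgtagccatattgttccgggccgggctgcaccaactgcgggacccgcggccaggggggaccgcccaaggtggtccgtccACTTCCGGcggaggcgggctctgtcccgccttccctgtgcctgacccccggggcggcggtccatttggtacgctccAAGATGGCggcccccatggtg
Mrps7: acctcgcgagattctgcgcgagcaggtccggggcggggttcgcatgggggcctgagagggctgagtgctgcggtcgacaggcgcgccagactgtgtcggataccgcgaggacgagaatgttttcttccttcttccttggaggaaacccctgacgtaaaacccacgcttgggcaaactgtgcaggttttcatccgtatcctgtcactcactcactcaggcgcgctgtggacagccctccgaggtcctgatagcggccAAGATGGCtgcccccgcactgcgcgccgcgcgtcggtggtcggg
Mrps26: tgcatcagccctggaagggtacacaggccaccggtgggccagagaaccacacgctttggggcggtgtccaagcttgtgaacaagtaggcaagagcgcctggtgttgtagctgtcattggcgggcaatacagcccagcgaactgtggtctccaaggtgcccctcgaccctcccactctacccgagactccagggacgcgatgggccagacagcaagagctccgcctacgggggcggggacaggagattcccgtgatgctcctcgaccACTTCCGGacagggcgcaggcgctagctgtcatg
Mrps9: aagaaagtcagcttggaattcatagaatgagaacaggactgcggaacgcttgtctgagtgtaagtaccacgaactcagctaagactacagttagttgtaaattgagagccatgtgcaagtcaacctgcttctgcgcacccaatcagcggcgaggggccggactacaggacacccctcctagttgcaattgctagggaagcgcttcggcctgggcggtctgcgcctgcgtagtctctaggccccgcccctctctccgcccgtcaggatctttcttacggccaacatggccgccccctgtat
Among the 6 genes that passed the test, Mrps27, Mrps7 and Mrps26 had a match and Mrps9, Mrps33 and Mrpl41 had none. A match describes letters in a window and not a bound site, and binding was not measured.

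Transcripts for mitochondrial ribosomal proteins differed little between dehydrated and euhydrated SON. Of the 71 genes tested, 3 rose (Mrps7, Mrpl41 and Mrps26), 3 fell (Mrps9, Mrps27 and Mrps33) and 65 did not pass the threshold (edgeR quasi-likelihood test, Benjamini-Hochberg adjusted p under 0.05 over all genes tested). That is 8.45% of the members, beside 12.7% of all genes tested, of which 7.79% were higher and 4.9% lower in dehydrated libraries. All 6 changes were small, between 1.09-fold and 1.15-fold. With library totals in place of TMM factors, 0 members were higher and 4 lower, the 3 named here and Mrpl44, beside 5.9% of all genes higher and 7.66% lower. The median log2 fold change (dehydrated over euhydrated) was -0.030 over the members and -0.0058 over all genes, with 26 members above 0 and 45 below. In 6 members the groups did not overlap in level, 2 of them higher and 4 lower in dehydrated libraries; the same holds for 10.9% of all genes, 6.9% higher and 3.97% lower. An unadjusted p under 0.05 was found for 12 members, beside 26.4% of all genes.

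**Figure D1:**
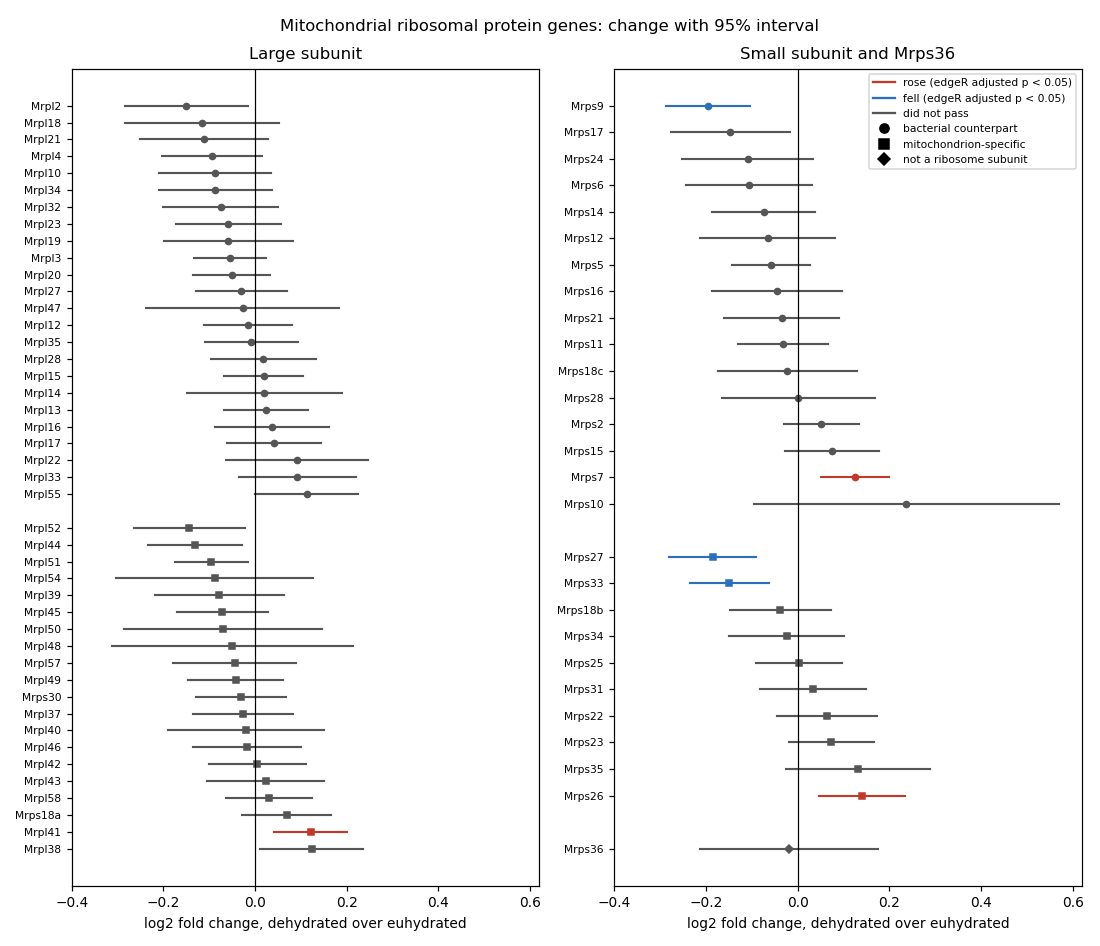
Log2 fold change (dehydrated over euhydrated, x axis) of each of the 71 tested genes with its 95% interval, large subunit on the left and small subunit with Mrps36 on the right, colours for the result of the test and shapes for the class. The values lie between -0.20 (Mrps9) and 0.24 (Mrps10), and 5 of the 6 coloured genes are in the right panel.

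The small subunit binds the messenger RNA and holds the decoding centre. It held 5 of the 6 genes that passed, among 26 tested (19.2%, beside 12.7% of all genes tested). At an unadjusted p under 0.05 it had 6 of 26 genes and the large subunit 6 of 44, beside 26.4% of all genes. The subunits were not compared by a test. Mrps9 (ENSRNOG00000016201), the counterpart of bacterial S9 in the head of the subunit, had 36.4, 36.9, 37.3, 37.3 and 37.8 CPM (counts scaled by library total and TMM factor) in dehydrated libraries 1 to 5, against 42.8, 43.3, 44.95, 38.7 and 42.8 CPM in euhydrated libraries 1 to 5. Every dehydrated library lay below every euhydrated library, and the dehydrated values spanned a narrower range. The means were 37.1 ± 0.515 CPM in dehydrated and 42.5 ± 2.31 CPM in euhydrated libraries (SD, n = 5 each), a log2 change of -0.20 ± 0.04 (SE; edgeR adjusted p = 0.00699). Mrps9 passed in all 19 alternatives, including each library left out in turn, with adjusted p-values of 0.000931 to 0.0224 in edgeR, DESeq2 and limma-voom.

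Mrps27 (ENSRNOG00000017272), a mitochondrion-specific protein with pentatricopeptide repeats, a fold that binds RNA, had 33.1, 31.4, 31.0, 30.1 and 31.6 CPM in dehydrated libraries, against 34.4, 38.6, 35.8, 34.6 and 35.4 CPM in euhydrated libraries. The groups did not overlap, and euhydrated 2 was the highest library. Mrps27 fell to 31.5 ± 1.09 CPM in dehydrated libraries, against 35.8 ± 1.69 CPM in euhydrated libraries (SD, n = 5), a log2 change of -0.19 ± 0.04 (SE; edgeR adjusted p = 0.0128). The call was kept with each library left out and was lost with the erythrocyte marker level as a covariate (edgeR adjusted p = 0.147, at a log2 fold change of -0.17).

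Mrps33 (ENSRNOG00000026528), another mitochondrion-specific protein, had 28.4, 30.3, 30.7, 30.6 and 30.9 CPM in dehydrated libraries, against 34.2, 33.0, 32.7, 33.8 and 33.7 CPM in euhydrated libraries. The groups did not overlap, and dehydrated 1 was the lowest library. The log2 fold change was -0.15 ± 0.04 (SE), from means of 30.2 ± 1.02 CPM in dehydrated and 33.5 ± 0.618 CPM in euhydrated libraries (SD, n = 5; edgeR adjusted p = 0.0236). The call was lost without euhydrated 1 (edgeR adjusted p = 0.0603), euhydrated 4 (0.0542) or dehydrated 1 (0.0595), where the log2 fold change was -0.14, -0.14 and -0.13. It was also lost with the replicate block (edgeR adjusted p = 0.05055) and with the erythrocyte (0.0881) or oligodendrocyte (0.0773) marker level as a covariate.

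Mrps7 (ENSRNOG00000003797), the counterpart of bacterial S7, which nucleates assembly of the subunit's head in bacteria, had 57.9, 59.0, 58.6, 58.6 and 57.2 CPM in dehydrated libraries, against 51.3, 54.9, 54.0, 55.0 and 52.0 CPM in euhydrated libraries. Every dehydrated library lay above every euhydrated library. Mrps7 rose to 58.2 ± 0.716 CPM in dehydrated libraries, against 53.4 ± 1.69 CPM in euhydrated libraries (SD, n = 5), a log2 change of 0.12 ± 0.03 (SE; edgeR adjusted p = 0.0274). Without euhydrated 1, euhydrated 5, dehydrated 2 or dehydrated 3 the edgeR adjusted p was 0.0774, 0.0536, 0.0590 and 0.0593. It was 0.102 with library totals, 0.0517 with every gene of at least 1 count kept, and 0.0916 and 0.06325 with the erythrocyte and oligodendrocyte covariates.

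Mrps26 (ENSRNOG00000021224), a mitochondrion-specific protein, had 93.1, 95.7, 109, 108 and 107 CPM in dehydrated libraries, against 92.0, 93.2, 92.2, 94.0 and 94.5 CPM in euhydrated libraries. Dehydrated 3, 4 and 5 stood above all other libraries, while dehydrated 1 lay within the euhydrated range, so the groups overlapped. The means were 103 ± 7.67 CPM in dehydrated and 93.2 ± 1.06 CPM in euhydrated libraries (SD, n = 5 each), a log2 change of 0.14 ± 0.04 (SE; edgeR adjusted p = 0.0484). The call was kept only without dehydrated 1 or dehydrated 2 when 1 library was left out. Without any of euhydrated 1 to 5 the edgeR adjusted p was 0.0955, 0.0812, 0.0839, 0.0756 and 0.0624, and without dehydrated 3, 4 or 5 it was 0.127, 0.104 and 0.111. It was also lost with DESeq2 size factors (0.0513), library totals (0.106), limma-voom (0.0685) and the erythrocyte marker level as a covariate (0.517, at a log2 fold change of 0.08), all adjusted p-values.

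**Figure D2:**
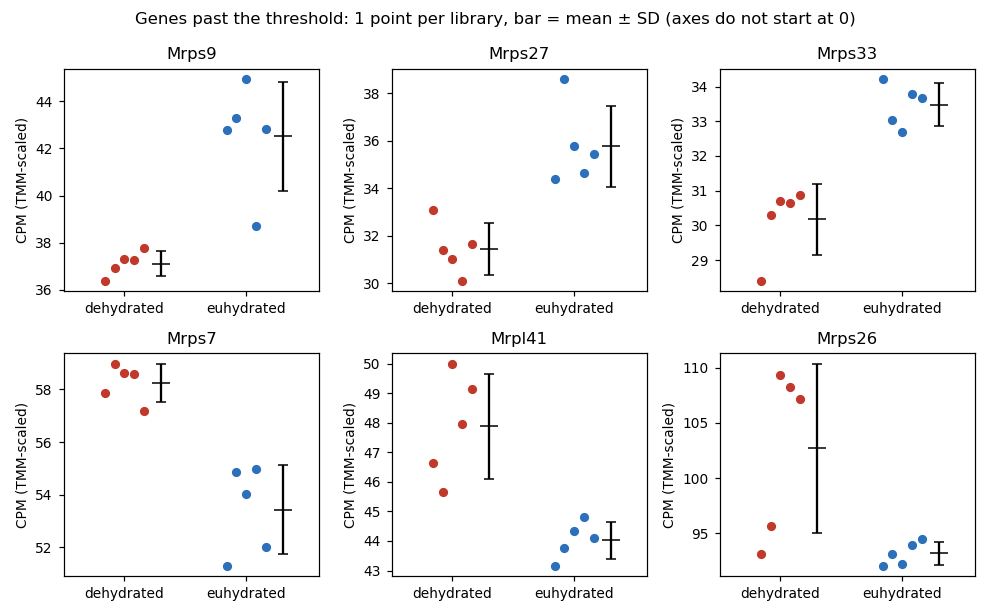
CPM (y axes, which do not start at 0) of the 6 genes past the threshold, with 1 point per library and the mean ± SD beside each group (n = 5), dehydrated left and euhydrated right. In all panels but that of Mrps26 the groups do not overlap, and in Mrps26 the points of dehydrated 1 and 2, at 93.1 and 95.7 CPM, lie near the euhydrated range of 92.0 to 94.5 CPM.

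The other 21 small subunit proteins did not pass. Mrps10, the counterpart of bacterial S10, had the largest log2 fold change of all members, 0.24 ± 0.15 (SE; edgeR adjusted p = 0.357), and also the widest spread. It had 20.1, 23.9, 17.7, 17.5 and 22.7 CPM in dehydrated libraries, against 17.8, 16.03, 14.1, 14.7 and 23.9 CPM in euhydrated libraries. Euhydrated 5 was among the highest libraries, and without it the log2 fold change was 0.38 (edgeR adjusted p = 0.0303). Mrps35, a mitochondrion-specific protein, averaged 26.7 ± 3.38 CPM in dehydrated and 24.4 ± 0.914 CPM in euhydrated libraries (SD, n = 5; log2 fold change 0.13, edgeR adjusted p = 0.278), and passed only without dehydrated 4, the lowest library (adjusted p = 0.0319). Mrps17, the counterpart of bacterial S17, averaged 16.3 ± 1.14 CPM in dehydrated and 18.1 ± 0.928 CPM in euhydrated libraries (log2 fold change -0.15, edgeR adjusted p = 0.136). Mrps12, the counterpart of bacterial S12 at the decoding centre, averaged 13.6 ± 1.07 CPM in dehydrated and 14.3 ± 0.902 CPM in euhydrated libraries (edgeR adjusted p = 0.604). Mrps2 averaged 66.7 ± 1.94 CPM in dehydrated and 64.3 ± 2.71 CPM in euhydrated libraries, Mrps16 11.8 ± 0.449 CPM in dehydrated and 12.2 ± 0.905 CPM in euhydrated libraries, and Mrps28 12.4 ± 0.628 CPM in dehydrated and 12.4 ± 1.42 CPM in euhydrated libraries (SD, n = 5; edgeR adjusted p = 0.420, 0.726 and 0.995).

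The large subunit joins amino acids and passes the growing chain through its exit tunnel to the inner membrane. Of its 44 tested members 1 rose and 0 fell in the edgeR test, 2.27% beside 12.7% of all genes tested. An unadjusted p under 0.05 was found for 6 of them, beside 26.4% of all genes. Mrpl44 was called lower with library totals (edgeR), and Mrpl52 with the level of oligodendrocyte genes added to the fit (edgeR adjusted p = 0.0369). The gene spelled mrpl9, also for a large subunit protein and outside the rule, fell in the edgeR test without a covariate (adjusted p = 0.0201) and did not pass with the erythrocyte covariate (0.158). Mrpl41 (ENSRNOG00000029875), a mitochondrion-specific protein, had 46.6, 45.7, 50.004, 48.0 and 49.2 CPM in dehydrated libraries, against 43.2, 43.8, 44.3, 44.8 and 44.1 CPM in euhydrated libraries. All 5 dehydrated libraries lay above the euhydrated ones. The means were 47.9 ± 1.77 CPM in dehydrated and 44.0 ± 0.624 CPM in euhydrated libraries (SD, n = 5 each), a log2 change of 0.12 ± 0.04 (SE; edgeR adjusted p = 0.0449). With 1 library left out, the call was kept only without dehydrated 2 (edgeR adjusted p = 0.0353). Without euhydrated 1 to 5 it was 0.101, 0.0825, 0.0636, 0.0582 and 0.0623, and without dehydrated 1, 3, 4 or 5 it was 0.0533, 0.117, 0.0727 and 0.0980. It was 0.136 with library totals, 0.0811 with every gene of at least 1 count kept, 0.0654 with the replicate block, and 0.301 and 0.09005 with the erythrocyte and oligodendrocyte covariates.

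By site in the large subunit, none of 2 stalk, 7 tunnel exit and 8 central protuberance proteins tested passed in edgeR. At an unadjusted p under 0.05 there were 0, 1 and 1. Among all genes tested 12.7% passed and 26.4% had an unadjusted p under 0.05. With so few genes per site, these counts are few genes away from those shares. Mrpl12, the stalk protein that recruits translation factors, had 39.2, 38.8, 39.8, 39.4 and 38.9 CPM in dehydrated libraries, against 37.3, 41.2, 40.6, 42.4 and 36.6 CPM in euhydrated libraries. The dehydrated values lay inside the euhydrated range, and the log2 fold change was -0.01 ± 0.05 (SE; 95% interval -0.11 to 0.08, edgeR adjusted p = 0.881). Mrpl45, which tethers the ribosome to the inner membrane at the tunnel exit, averaged 29.3 ± 1.06 CPM in dehydrated and 30.8 ± 1.57 CPM in euhydrated libraries (SD, n = 5; 95% interval of the log2 fold change -0.17 to 0.03, edgeR adjusted p = 0.366). Mrpl58, a peptidyl-tRNA hydrolase that frees stalled ribosomes and is also built into the subunit, averaged 24.6 ± 0.525 CPM in dehydrated and 24.1 ± 0.849 CPM in euhydrated libraries (interval -0.06 to 0.12, edgeR adjusted p = 0.721).

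Among the other large subunit genes, Mrpl2, the counterpart of bacterial L2 near the peptidyl transferase centre, averaged 18.1 ± 1.04 CPM in dehydrated and 20.1 ± 1.56 CPM in euhydrated libraries (SD, n = 5; log2 fold change -0.15, edgeR adjusted p = 0.142). Mrpl52 averaged 25.5 ± 1.72 CPM in dehydrated and 28.1 ± 1.68 CPM in euhydrated libraries (log2 fold change -0.14, edgeR adjusted p = 0.116). Mrpl38, of the central protuberance, averaged 43.6 ± 3.27 CPM in dehydrated and 40.0 ± 1.99 CPM in euhydrated libraries (log2 fold change 0.12, edgeR adjusted p = 0.151). Mrpl17 averaged 76.0 ± 4.01 CPM in dehydrated and 73.8 ± 4.77 CPM in euhydrated libraries, Mrpl14 8.64 ± 0.739 CPM in dehydrated and 8.52 ± 0.471 CPM in euhydrated libraries, and Mrpl39 12.2 ± 0.871 CPM in dehydrated and 12.9 ± 0.601 CPM in euhydrated libraries (SD, n = 5; edgeR adjusted p = 0.646, 0.908 and 0.506). Singled out after their values were seen, Mrpl51 had groups that did not overlap without passing (46.5 to 50.339 CPM in dehydrated and 50.344 to 53.9 CPM in euhydrated libraries, edgeR adjusted p = 0.110), and Mrpl44, an RNase III-like protein at the tunnel exit, had a log2 change of -0.13 (edgeR adjusted p = 0.0886).

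Some symbols do not name the subunit that holds the protein. Mrps30 and Mrps18a are proteins of the large subunit despite their names. Mrps30 averaged 28.5 ± 1.45 CPM in dehydrated and 29.1 ± 0.704 CPM in euhydrated libraries (SD, n = 5; edgeR adjusted p = 0.731), and Mrps18a 35.2 ± 0.529 CPM in dehydrated and 33.6 ± 1.98 CPM in euhydrated libraries (adjusted p = 0.365). The paralogues of Mrps18a, Mrps18b and Mrps18c, belong to the small subunit, and their edgeR adjusted p-values were 0.701 and 0.883. Mrps36, now known as a component of the 2-oxoglutarate dehydrogenase complex, had 25.2, 27.0, 24.5, 18.8 and 22.6 CPM in dehydrated libraries, against 27.4, 22.0, 24.9, 23.4 and 22.0 CPM in euhydrated libraries (edgeR adjusted p = 0.928). By origin, 0 of 24 large subunit and 2 of 16 small subunit proteins with a bacterial counterpart passed in edgeR (1 and 3 at an unadjusted p under 0.05), as did 1 of 20 large subunit and 3 of 10 small subunit proteins specific to mitochondria (5 and 3). Of all genes tested 12.7% passed and 26.4% had an unadjusted p under 0.05, and no difference between these classes was tested.

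The members also varied little within a group. Their median within-group SD of log2 CPM was 0.0816, beside 0.106 over all genes tested and 0.0871 over the 8429 genes tested within the members' range of mean CPM (8.58 to 97.9 CPM), of which 14.2% passed the edgeR test. Of the 65 genes that did not pass, 64 had a 95% interval that lay within 1.25-fold in either direction, and all 65 lay within 1.5-fold. Mrps10 was the exception at 1.25-fold. Its within-group SD of 0.257 was the largest, followed, in an order seen in the data, by Mrpl48 (0.213), Mrpl50 (0.196) and Mrpl47 (0.187). In Mrpl48 the range was 34.4 to 40.6 CPM in dehydrated and 27.4 to 43.3 CPM in euhydrated libraries, with euhydrated 3 the lowest. In Mrpl50, dehydrated 2 was the lowest library with 9.66 CPM, while the other 9 libraries had 13.1 to 15.2 CPM.

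Summed over all 76 genes, the level was 2084, 2141, 2161, 2098 and 2160 CPM in dehydrated libraries, against 2167, 2177, 2128, 2117 and 2125 CPM in euhydrated libraries. The groups overlapped, and their means of 2129 ± 35.8 CPM in dehydrated and 2143 ± 27.1 CPM in euhydrated libraries (SD, n = 5 each) differed by -0.65%, less than 1 SD. As a share of all counts the members took 0.211% ± 0.00449 in dehydrated and 0.216% ± 0.00215 in euhydrated libraries, a difference of -2.50%. The sum over large subunit genes was 1.49 ± 0.0152 times that over small subunit genes in dehydrated and 1.52 ± 0.0224 times in euhydrated libraries. In bulk tissue, fewer cells of a type and less RNA per cell cannot be told apart. Between 24 and 40 members in dehydrated and between 30 and 46 in euhydrated libraries stood above their own median over the 10 libraries.

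**Figure D3:**
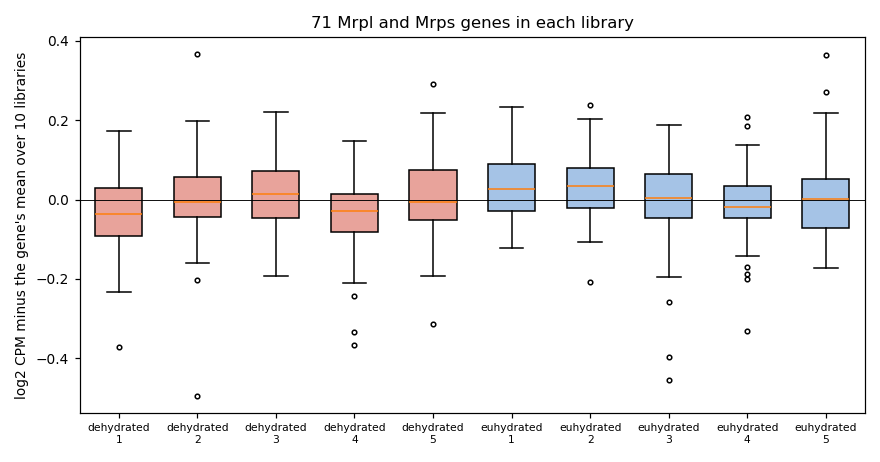
Deviation of log2 CPM from each gene's mean over the 10 libraries (y axis), as a box for the 71 genes in each library, dehydrated left and euhydrated right; the line is the median, the box the quartiles, whiskers reach 1.5 box lengths and circles are genes beyond them. Boxes of both groups overlap and cross 0. The sums over all 76 genes, 2084 to 2161 CPM in dehydrated and 2117 to 2177 CPM in euhydrated libraries, also overlap.

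The 5 members that were not tested were Mrpl1, with 4, 4, 7, 4 and 1 counts in dehydrated and 7, 9, 9, 1 and 9 counts in euhydrated libraries, Mrpl36 and Mrpl53, with 0 counts in every library, and 2 genes named Mrps21l, with 1 count each. A count of 0 allows up to 3 counts, or 0.126 CPM in the smallest library. The tested members had between 188 and 2958 counts in a library. RefSeq names at least 1 pseudogene for 22 of the 76 members, Mrps10, Mrpl2 and Mrps17 among them, and none for the 6 that passed, and counts of genes with near-identical copies are uncertain. Spelled in lower case and so outside the rule, the large subunit gene mrpl9 fell (log2 fold change -0.16 ± 0.04 SE, edgeR adjusted p = 0.0201; 0.0575 without euhydrated 3), while mrpl11 and mrpl24 had adjusted p-values of 0.0892 and 0.0549. With these, 7 of 74 genes passed (9.46%), 3 higher and 4 lower.

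Mrps26 lies beside the hormone genes of the SON. In RefSeq the order of protein-coding genes on chromosome 3 is Ptpra, Mrps26, Oxt and Avp, where Oxt encodes the oxytocin precursor and Avp the vasopressin precursor. Oxt had 2989, 3149, 4169, 3184 and 3476 CPM in dehydrated libraries, against 3183, 3012, 3280, 2822 and 2668 CPM in euhydrated libraries (log2 fold change 0.18 ± 0.09 SE, edgeR adjusted p = 0.254). Dehydrated 3 was the highest library for Mrps26, Oxt and Avp alike, while dehydrated 1 was the lowest dehydrated library for all of them. Other libraries differed in order. Dehydrated 2 lay above dehydrated 4 and 5 for Avp and below them for Mrps26. Euhydrated 1 was the highest euhydrated library for Avp and the lowest for Mrps26, and euhydrated 5 was the highest for Mrps26 and the lowest for Oxt. Avp had 7173, 9002, 9641, 8150 and 8410 CPM in dehydrated libraries, against 7343, 4274, 6291, 5789 and 7065 CPM in euhydrated libraries (log2 fold change 0.46 ± 0.15 SE, edgeR adjusted p = 0.0800). Avp passed with DESeq2 (adjusted p = 0.0144), limma-voom (0.0200) and without euhydrated 2 in edgeR (0.0463, at a log2 fold change of 0.36). Ptpra, on the other side, rose by 0.12 ± 0.03 on the log2 scale (SE; edgeR adjusted p = 0.0140). Spans of 16 members overlap another protein-coding gene in RefSeq, and those of the 6 genes that passed do not; whether reads past a gene's end reach its neighbour was not tested.

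**Figure D4:**
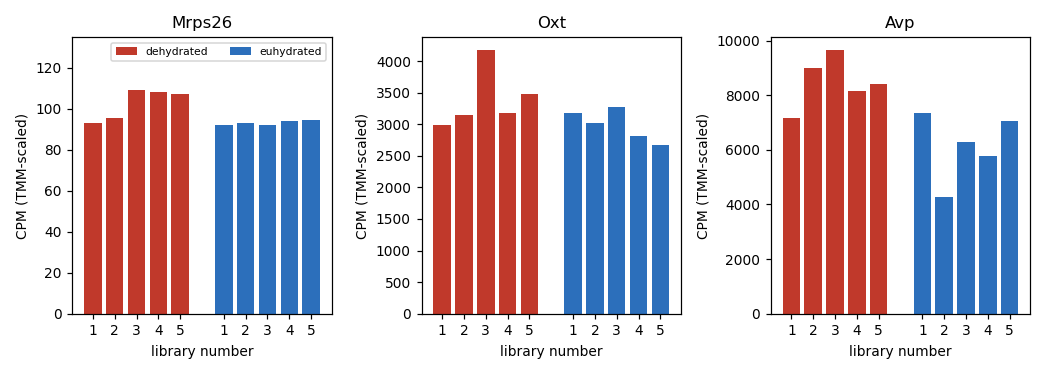
CPM per library (y axes from 0, separate scales) of Mrps26 and the neighbouring hormone genes Oxt and Avp, dehydrated libraries 1 to 5 left and euhydrated 1 to 5 right. Dehydrated 3 has the tallest bar in each panel, at 109, 4169 and 9641 CPM, and the groups overlap in every panel.

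Few genes of the machinery around the mitochondrial ribosome passed the threshold, beside 12.7% of all genes tested (26.4% at an unadjusted p under 0.05). The lists are short, so a count of 0 is few genes away from that share. The 2 of 14 content markers (14.3%) lie near it, and no list was tested as a set. The 5 ribosomal proteins with other symbols did not pass in edgeR (0 at an unadjusted p under 0.05); their log2 fold changes were 0.06 for Dap3, -0.07 for Aurkaip1, 0.02 for Chchd1, -0.08 for Ptcd3 and 0.07 for Gadd45gip1. Of 15 translation factors 0 passed (3 at an unadjusted p under 0.05), of 10 genes for mitochondrial transcription and mRNA stability 0 passed (1), and of 10 regulators of mitochondrial biogenesis 0 passed (0), all in edgeR. Of 29 genes for ribosome assembly and rRNA modification 1 fell, Eral1, which binds the small subunit rRNA, with a log2 change of -0.16 ± 0.05 (SE) at the edge of the threshold (edgeR adjusted p = 0.0499998). It passed in 6 of 19 alternatives and, with 1 library left out, only without euhydrated 5 (edgeR adjusted p = 0.0457; up to 0.128 without euhydrated 1). Of 14 markers of mitochondrial content 2 rose: Tomm20, an import receptor of the outer membrane, to 159 CPM in dehydrated libraries, against 137 CPM in euhydrated libraries (log2 fold change 0.22 ± 0.04 SE, edgeR adjusted p = 0.00115), and Hspa9, a matrix chaperone, to 233 CPM in dehydrated libraries, against 211 CPM in euhydrated libraries (0.14 ± 0.04 SE, edgeR adjusted p = 0.0181; 0.0516 without euhydrated 1). At an unadjusted p under 0.05 there were 5 of the 14 content markers in edgeR. Tomm20, Hspa9 and Hspd1 were higher, and Cs and Timm44 lower (log2 fold changes of -0.07 and -0.12). Of the 13 protein-coding genes of the mitochondrial genome, whose messenger RNAs these ribosomes translate, 0 passed the threshold in edgeR (4 at an unadjusted p under 0.05). These 4 were Mt-nd5 and Mt-co1, which were higher, and Mt-nd3 and Mt-atp8, which were lower. Of the 13 genes 11 were above 0, among them Mt-nd6 with an SE of 0.71, and the median log2 fold change of the 13 was 0.07.

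Cytosolic ribosomal protein genes, set beside the mitochondrial ones, had other counts. Of 74 tested, 0 rose and 35 fell in edgeR (47.3%), beside 4.9% of all genes lower. An unadjusted p under 0.05 in either direction was found for 48, beside 26.4% of all genes. Their median log2 fold change was -0.12, against -0.030 over the mitochondrial members. With library totals 41 fell, beside 7.66% of all genes. With the erythrocyte marker level as a covariate 16 fell, beside 1.31% of all genes. Many cytosolic ribosomal protein genes have pseudogenes, which makes their counts less certain. Of 80 nuclear genes for oxidative phosphorylation subunits 2 rose and 3 fell (6.25%, beside 12.7% of all genes), with a median of -0.017. The difference between these families was not tested.

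**Figure D5:**
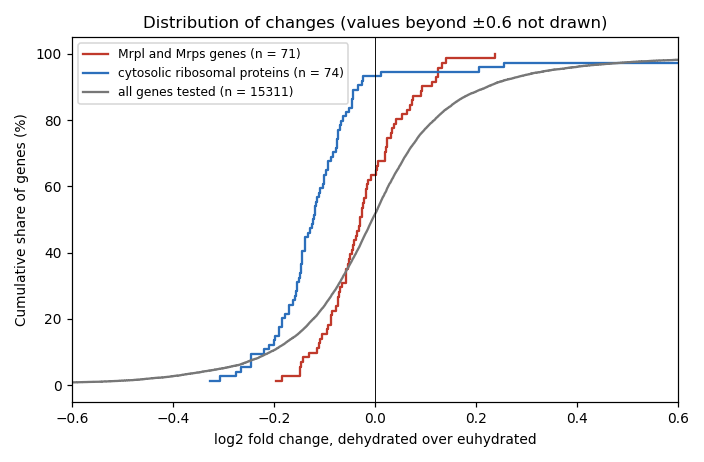
Cumulative share of genes (y axis, percent) by log2 fold change, dehydrated over euhydrated (x axis), for the 71 mitochondrial ribosomal protein genes, 74 cytosolic ribosomal protein genes and 15311 genes tested. The curve of the mitochondrial genes crosses its median at -0.030 and that of the cytosolic genes at -0.12, and the mitochondrial genes span only -0.20 to 0.24.

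Libraries held 24268398 to 28491926 counts. Summed levels of some marker lists differed with the groups, without overlap for magnocellular markers and with overlap for erythrocyte and oligodendrocyte markers. Magnocellular markers (5 of 10 rose) summed to 12835 to 16957 CPM in dehydrated and 8644 to 12052 CPM in euhydrated libraries, with none of them at 0. Those that rose were Pdyn, Scg2, Vgf, Nos1 and Creb3l1. Avp and Oxt, which did not pass in edgeR, made up most of the sum. Otp, Sim1 and Pou3f2 did not pass either, with log2 fold changes of 0.07, 0.09 and -0.05. The sum is therefore not a measure of the share of magnocellular cells. Erythrocyte markers (1 of 7 tested fell, Slc4a1) summed to 591 to 1428 CPM in dehydrated and 1027 to 2059 CPM in euhydrated libraries, and oligodendrocyte markers (2 of 10 fell) to 9717 to 12414 CPM in dehydrated and 10161 to 14739 CPM in euhydrated libraries. Astrocyte, microglial and vascular markers had 0 of 9, 0 of 9 and 0 of 8 genes past the threshold in edgeR. At an unadjusted p under 0.05 they had 0, 4 and 2. Beside all these marker counts, 12.7% of all genes tested passed and 26.4% had an unadjusted p under 0.05. The marker lists are short, and none was tested as a set. Choroid plexus and ependymal markers summed to at most 25.3 CPM, with Otx2 at 0. The part of these cell types in the 6 changes was not tested; with the erythrocyte level as a covariate Mrps9 alone passed among the members, where 5.12% of all genes passed, and Mrps27, Mrps33, Mrps7, Mrpl41 and Mrps26 had log2 fold changes of -0.17, -0.18, 0.15, 0.10 and 0.08. With the oligodendrocyte level, where 10.8% of all genes passed, Mrps26 was called higher and Mrps9, Mrps27 and Mrpl52 lower.

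In the authors' deposited table, 71 members had an adjusted p and 6 were under 0.05, the same 6 genes as here, beside 2246 of 14613 genes (15.4%). The log2 fold changes in the authors' deposited table were -0.20 for Mrps9 (adjusted p = 0.000989 in DESeq2), -0.19 for Mrps27 (0.00393), -0.15 for Mrps33 (0.0163), 0.12 for Mrps7 (0.0142), 0.12 for Mrpl41 (0.0357) and 0.14 for Mrps26 (0.0372).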

How the data were processed

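The authors deposited raw counts of reads per Ensembl gene for 10 libraries, and their own comparison as log2 fold changes, p-values and adjusted p-values, per the file headers. Per the labels' protocols, a stranded kit for messenger RNA was used. Per the submitters' processing notes, the tools were DESeq2 1.28.1, featureCounts, STAR, FastQC and CASAVA, with no roles stated; build, annotation and strand setting were not given in the sources used here. Overlapping, antisense and near-identical genes are therefore uncertain. Symbols came from the authors' table.

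The count columns euhydrated 3 to 5 could be tied to their group but not to single samples, so column numbers name the libraries. Genes kept by filterByExpr (15311 of 32402) were scaled by TMM and compared with edgeR 4.0.16 (glmQLFit, robust, and glmQLFTest) under R 4.3.3 without covariates; Benjamini-Hochberg adjustment ran over all 15311 genes and the threshold was 0.05. Standard errors are the log2 fold change divided by the root of F, and a prior count of 2 entered log2 CPM. The limit of 3 counts at a count of 0 covers counting error only. At 24268398 to 28491926 counts per library every tested member had at least 188 counts. The fit was run on simulated data, where a minimum number of calls was required at 1.5-fold and not at smaller changes.

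The members and all lists were chosen with earlier results of these data known, and lists rest on textbook knowledge. Named members are those past the threshold, the 4 highest and 4 lowest by mean CPM, the 3 largest changes in each direction among the rest, and 9 chosen for their role; others are marked as chosen after their values were seen. Promoters, neighbours and pseudogene names are from RefSeq (GRCr8), which placed 76 members and gave promoters of 58. Both genes named Mrps21l were placed between the same neighbours, so the placements are not all separate. CPM is not per length, so levels are not compared between genes.

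Alternatives were DESeq2 size factors, library totals, limma-voom (limma 3.58.1), DESeq2 1.42.0, a looser and a stricter filter for low counts, a block by library number, 2 marker covariates and each library left out.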

Additional observations from a re-analysis of the deposited data

Results flagged for a closer look

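Among the levels of the named members, dehydrated 1 stood apart from its group for Mrps33, with 28.4 CPM, against 30.3 to 30.9 CPM in the other 4 dehydrated libraries. The gap took 0.762 of the range of the 5 values, which is above the 95% critical value of Dixon's ratio. Chance flags about 1 in 20 groups, and 60 groups were looked at. Without dehydrated 1 the log2 fold change of Mrps33 was -0.13 (edgeR adjusted p = 0.0595).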

How the results depend on the processing

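Over 19 alternatives no named gene reversed its direction while past the threshold. Members higher in dehydrated libraries numbered 3 (7.79% of all genes higher), and 2 with DESeq2 size factors (7.7%) or limma-voom (7.69%). They numbered 0 with library totals (5.9%) and 1 with every gene of at least 1 count kept (5.08%). With the erythrocyte covariate 0 were higher (3.81%), and with the oligodendrocyte covariate 1 (6.75%). Members lower numbered 3 (4.9% of all genes lower), 4 with library totals (7.66%) and 1 with the erythrocyte covariate (1.31%). In the other mitochondrial lists, 2 genes higher became 1 with library totals and 1 with the erythrocyte covariate. In these lists 1 gene lower became 4 with library totals and 0 with every gene of at least 1 count kept (3.06% of all genes lower). It became 3 with DESeq2 (6.58% of all genes lower) and 0 with the replicate block (5.2%). The members' median log2 fold change of -0.030 became -0.057 with library totals, which moved that of all genes to -0.033. The summed level differed by -0.65%, and by -2.50% as a share of library totals. The cause of these changes was not tested, except that the wider filter tests more genes.

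With 1 library left out, 0 to 2 members were higher and 2 to 3 lower, the other lists gave 2 to 3 genes higher and 0 to 1 lower, the median log2 fold change was -0.040 to -0.019, and 9.71% to 11.4% of all genes passed. Of the 3 members higher, 0 passed without euhydrated 1, euhydrated 5 or dehydrated 3. Of the oxidative phosphorylation genes 1 to 3 were higher and 1 to 4 lower, and 24 to 35 cytosolic ribosomal protein genes were lower; these counts under each alternative were added after seeing the data. With the replicate block, 2 members were higher and 2 lower, beside 7.58% and 5.2% of all genes. However, libraries of the same number shared only a number. Their deviations correlated at -0.068 to 0.14, and 1 dehydrated and 1 euhydrated library correlated best with its own number. Mrpl1, Mrpl36, Mrpl53 and Mrps21l had too few counts to be tested, and the cause of their low counts was not tested.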
